A study of Mus musculus with 60 samples.

Results

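The genes described here were 10 secreted fibroblast growth factor (FGF) ligands that act in the mouse embryo, Fgf3, Fgf4, Fgf5, Fgf8, Fgf9, Fgf10, Fgf15, Fgf17, Fgf18 and Fgf20. They were chosen by name, and all 10 were found among 21842 protein-coding genes, 3177 of which had an H3K27me3 peak at the promoter in at least 2 libraries. The mark, which Polycomb complexes write on silent genes, was mapped by CUT&RUN: an antibody tethers a nuclease to marked nucleosomes and the DNA it releases is sequenced. Mouse embryonic stem cells (mESCs) were differentiated in a monolayer towards anterior neural progenitors, with bFGF (FGF2 protein) in the medium from day 0 to day 3. The series asked how loss of the DNA dioxygenase TET1, or of its catalytic activity alone, alters the mark on this route.

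KO cells were blastocyst-derived mESCs lacking Tet1 (allele Tet1<tm1Koh>) on a B6129S6F1 background, and WT cells were wild-type mESCs of the same background. MUT cells carried a catalytically inactive TET1, introduced into mESCs of that background by CRISPR HDR, so that each MUT line is a clone. The 3 genotypes were each collected on days 0, 2, 3 and 5, with a further day 5 collection from cells given 5 µM of the Wnt inhibitor XAV939 from day 2 on (day 5 XAV). Each group held 2 lines, which are the replicates. KO15, CM59, WT70 and WT72 were sampled at all 5 time points, KO25 and CM40 at days 0 and 2, and KO1 and CM69 from day 3. In KO and MUT cells, a step from day 2 to day 3 and this exchange of 1 of the 2 lines cannot be told apart. The titles, cell line and genotype labels of the KO25 samples give KO25 and Tet1 KO, while their description field names WT70. The peak sets taken here as KO25 carry that name and differ from those of WT70, with 2874 peaks against 1484 at day 0 and 2076 against 2185 at day 2.

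FGF ligands bind receptor tyrosine kinases at the cell surface, start the MAPK cascade, and switch on feedback inhibitors such as the Sprouty proteins and transcription factors of the ETV family. Fgf4 is a signal of pluripotent cells, Fgf5 a marker of the primed epiblast, and Fgf8 is made in the primitive streak and later at the anterior edge of the neural plate and the midbrain-hindbrain border. Promoters of such developmental genes are classic Polycomb targets, marked where the gene is silent.

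The series comprised 60 samples, 30 with the H3K27me3 antibody and 30 with IgG. The 30 H3K27me3 libraries held 704 to 3466 peaks, the fewest in CM59 at day 5 XAV, where the next smallest library held 969. After day 2 the number of peaks ranged from 1729 to 2738 in KO, from 704 to 2847 in MUT and from 969 to 1717 in WT libraries. Read depth is unknown from these values, and peak signal was not scaled between libraries, so a peak is described below by its presence, its width and its percentile rank (100 for the strongest peak of its library by total signal, 0 where there was no peak). Of 4 pluripotency markers, Esrrb was marked in all 30 libraries, Pou5f1 in 5 of 6 at day 5 and 6 of 6 at day 5 XAV but in none before, and Nanog and Zfp42 in none. Of 5 neural markers, Pax6 and Six3 were marked in 30 libraries, Sox1 in 29, Otx2 in 12 (6 at day 0, 5 at day 2 and 1 at day 5) and Sox2 in 2, both at day 5. Of 5 mesoderm and endoderm markers, T, Sox17 and Foxa2 were marked in 30 libraries, Mesp1 in 29 and Mixl1 in 18. The markers of each kind thus did not share 1 course, and Esrrb was marked in stem cells at day 0. Fewer marked cells and less mark per cell cannot be told apart in such bulk libraries.

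A promoter is the DNA within 1.5 kb of an annotated start of a protein-coding transcript, in build GRCm38.p6. A cluster on chromosome 7 holds Fgf3 (ENSMUSG00000031074.14, chr7:144838083-144844436, plus strand), Fgf4 (ENSMUSG00000050917.5, chr7:144847367-144865243, plus) and Fgf15 (ENSMUSG00000031073.6, chr7:144896531-144900953, plus). Chromosome 14 holds Fgf9 (ENSMUSG00000021974.15, chr14:58070547-58112720, plus) and Fgf17 (ENSMUSG00000022101.6, chr14:70636203-70642268, minus). The others are Fgf5 (ENSMUSG00000029337.2, chr5:98254184-98277030, plus), Fgf8 (ENSMUSG00000025219.13, chr19:45736798-45742915, minus), Fgf10 (ENSMUSG00000021732.14, chr13:118669791-118792115, plus), Fgf18 (ENSMUSG00000057967.12, chr11:33117430-33147400, minus) and Fgf20 (ENSMUSG00000031603.14, chr8:40279166-40308331, minus). In all but 1 case a gene with a peak over it also had a peak at its promoter. The exception was Fgf18 in WT72 at day 0, where a peak covered 3508 bp of the gene away from its starts. In KO15 more than the promoter peak lay over the gene with 1.5 kb to either side. For Fgf18 at day 5, 8779 bp were covered with a promoter peak of 3829 bp. For Fgf17 at day 5 XAV, 7999 bp were covered with a promoter peak of 5335 bp. Where a gene has distant starts, the mark sat at 1 of them: the Fgf4 peaks covered the start at 144861386 in 13 libraries and the start at 144847367 in 0, and the Fgf20 peaks covered that at 40286953 in 13 and that at 40308331 in 0.

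The promoter sequences below show the DNA under 4 contrasting patterns, from a promoter marked in every library to 1 marked in a few early libraries. They run 5′ to 3′ on the gene's strand from 250 bases before the start to 50 after it, from RefSeq on GRCm38.p6, in which 6 of the 10 genes were matched (Fgf8, Fgf15, Fgf17 and Fgf20 were not). CG dinucleotides, the sites of DNA methylation and of TET1 activity, are in capitals. Fgf3, marked in all 30 libraries, has 14 of them at chr7:144838362-144838661, plus strand. Fgf4, marked from day 5, has 28 at chr7:144861136-144861435, plus strand. Fgf5, marked at day 0, has 29 at chr5:98253934-98254233, plus strand. Fgf10, marked in 6 libraries, has 10 at chr13:118714449-118714748, plus strand.
Fgf3: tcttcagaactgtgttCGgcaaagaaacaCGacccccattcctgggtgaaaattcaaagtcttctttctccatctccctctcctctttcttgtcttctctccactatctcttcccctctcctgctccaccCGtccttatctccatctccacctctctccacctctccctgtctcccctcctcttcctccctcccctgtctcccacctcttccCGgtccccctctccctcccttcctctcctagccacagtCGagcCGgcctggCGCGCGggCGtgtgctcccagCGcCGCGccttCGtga
Fgf4: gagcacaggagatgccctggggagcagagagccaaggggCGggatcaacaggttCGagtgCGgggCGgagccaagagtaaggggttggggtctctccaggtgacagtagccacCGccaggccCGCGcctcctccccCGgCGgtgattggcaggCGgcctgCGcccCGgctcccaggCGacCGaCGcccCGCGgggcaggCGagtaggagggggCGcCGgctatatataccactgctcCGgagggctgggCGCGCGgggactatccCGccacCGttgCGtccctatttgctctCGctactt
Fgf5: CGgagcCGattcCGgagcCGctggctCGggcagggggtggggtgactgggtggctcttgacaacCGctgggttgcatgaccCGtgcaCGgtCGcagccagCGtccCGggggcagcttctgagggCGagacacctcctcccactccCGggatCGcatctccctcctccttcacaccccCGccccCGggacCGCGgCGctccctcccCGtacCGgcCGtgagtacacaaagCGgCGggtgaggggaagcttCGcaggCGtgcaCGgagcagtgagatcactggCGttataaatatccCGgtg
Fgf10: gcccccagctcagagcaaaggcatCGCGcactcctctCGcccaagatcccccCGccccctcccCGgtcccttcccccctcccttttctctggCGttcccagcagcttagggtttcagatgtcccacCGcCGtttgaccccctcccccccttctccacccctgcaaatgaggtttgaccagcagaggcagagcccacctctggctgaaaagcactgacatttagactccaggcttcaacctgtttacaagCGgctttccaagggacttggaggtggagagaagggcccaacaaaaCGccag

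Of the 32851 promoters of that length in the table, 36.3% held at least as many CG dinucleotides as Fgf3, 14.2% as many as Fgf4, 12.9% as many as Fgf5 and 43.5% as many as Fgf10. The Fgf9 promoter held 12 (as many in 39.6% of promoters) and the Fgf18 promoter 47 (as many in 1.44%). The number of CG dinucleotides did not order these promoters by how often they were marked: Fgf18, with the most, was marked in 7 libraries and Fgf3, with 14, in 30.

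Across the 30 libraries, the 10 promoters fell into 3 that nearly always carried the mark and 7 that carried it at some stages. Fgf3 was marked in 30 libraries, Fgf9 in 29 and Fgf8 in 28. Fgf15 was marked in 17, Fgf4 and Fgf20 in 13 each, Fgf17 in 11, Fgf18 in 7, and Fgf5 and Fgf10 in 6 each. The median was 13 libraries, against 12 over the 3177 promoters, of which 13.8% were marked in all 30. These 3 nearly always marked promoters also had the broadest peaks, with median widths of 9054.5 bp at Fgf3, 8782 bp at Fgf8 and 8452 bp at Fgf9, against medians of 3467 bp at Fgf20 to 6215 bp at Fgf4 among the other 7. By time point the median width at Fgf8 was 10333.5 bp at day 0, 9887 bp at day 2, 7140 bp at day 3, 6190 bp at day 5 and 8488 bp at day 5 XAV, and at Fgf9 it was 11671 bp, 9234 bp, 4134 bp, 7904.5 bp and 7189 bp. Both were broadest at day 0, and the narrowest medians were at day 5 for Fgf8 and at day 3 for Fgf9.

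**Figure D1:**
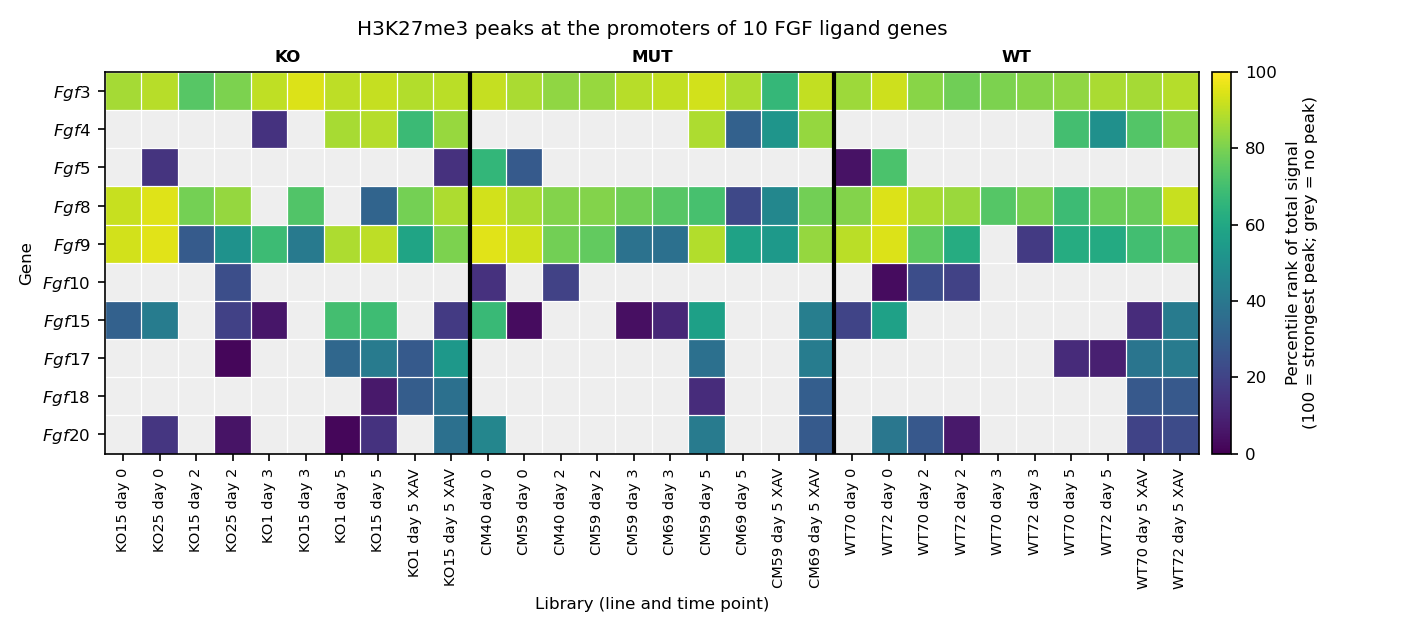
Percentile rank of the H3K27me3 peak at each promoter (rows) in each library (columns: KO, MUT and WT lines, each by time point), with grey where no peak was called. Fgf3 was marked in all 30 libraries, Fgf8 was missing in KO1 at days 3 and 5, and Fgf4 was marked in all 12 libraries at day 5 and day 5 XAV but in 1 of the 18 earlier ones.

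Fgf3, a ligand needed for the inner ear and the tail, showed the steadiest mark. Its percentile rank ran from 74.2 to 94.6 with a median of 89.5 in the 10 KO libraries, from 66.5 to 93.3 with a median of 88.5 in the 10 MUT libraries, and from 78.2 to 92.5 with a median of 84.2 in the 10 WT libraries. The 3 ranges overlapped, and the lowest value was that of CM59 at day 5 XAV, the library with the fewest peaks. After day 2 the 6 KO libraries lay between 88.7 and 94.6 and the 6 WT libraries between 80.2 and 88.9, which still overlapped.

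Fgf8, the ligand of the primitive streak and of the signalling centres of the anterior neural plate, was the member with the largest KO and WT difference in mean rank and width over all time points. By calls over all time points Fgf15 differed more (7 of 10 KO against 4 of 10 WT libraries, and 8 of 10 against 10 of 10 for Fgf8). At day 0 the percentile rank of Fgf8 was 91.5 and 95.3 in the KO lines, 93.1 and 86.9 in MUT and 81.6 and 94.7 in WT. At day 2 it was 79.2 and 84.3 in KO, 81.4 and 81.4 in MUT and 86.7 and 85.0 in WT. At day 3 there was no peak in KO1 and a peak at 73.0 in KO15, against 78.2 and 74.0 in MUT and 73.6 and 79.5 in WT. At day 5 KO1 again had no peak and KO15 had 1 at 32.2, against 70.8 and 21.8 in MUT and 68.7 and 77.4 in WT. At day 0 the 3 genotypes thus overlapped, while at days 2, 3 and 5 both KO lines lay below both WT lines. The KO and WT ranks were close at day 2 and furthest apart at day 5. At day 3 KO15 at 73.0 lay just below WT70 at 73.6. Both MUT lines also lay below both WT lines at day 2, and 1 of the 2 did at day 5. Both KO lines lay below both WT lines at day 5 at 3.05% of promoters. The share of all promoters with this order at days 2 and 3 was not counted.

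The width of the Fgf8 peak at day 5 had the same order for KO and WT: at day 5 it was 0 bp (no peak) and 4584 bp in KO, 7372 bp and 5990 bp in MUT and 6190 bp and 7615 bp in WT. With XAV it was 7617 bp and 10214 bp in KO, 8174 bp and 7499 bp in MUT and 8802 bp and 11473 bp in WT. Both KO lines thus had a broad Fgf8 peak at day 5 XAV. Over all 5 time points the percentile rank of Fgf8 averaged 62.2 in KO and 81.6 in WT libraries (difference -19.4, exact stratified permutation test, two-sided, p = 0.070, Benjamini-Hochberg adjusted p = 0.337 over all 2855 promoters tested). The width differed by -2112 bp (exact p = 0.0633, adjusted p = 0.370). Neither passed the test, and the difference rested on line KO1: without it the rank difference was -8.01 (exact p = 0.224) and the width difference -679.6 bp. Without KO25 they were -20.3 (exact p = 0.052) and -1937 bp (exact p = 0.111).

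None of the 10 promoters differed between KO and WT at an adjusted p below 0.05 in any of the 4 tests (calls over all time points, calls after day 2, rank, width), and none reached an unadjusted p below 0.05. Over all promoters, 16.8% had an unadjusted p below 0.05 for rank. The unadjusted count for rank depended on the measure. With ranks counted as log2 from the strongest peak, 4 of the 10 had an unadjusted p below 0.05, as had 960 of 2855 promoters. After day 2, 5 of the 8 members tested were marked in more KO than WT libraries (Fgf4, Fgf9, Fgf15, Fgf18 and Fgf20), which is close to the 64% of 2229 promoters for which this held. Fgf8 was the 1 member marked in fewer KO than WT libraries, 4 of 6 against 6 of 6, where 3.86% of all promoters went this way. The median difference in rank between KO and WT was 2.29 points over the 10 members and 4.75 points over all promoters.

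Fgf15, the mouse counterpart of human FGF19 and a ligand of the embryonic neural tube, had, like Fgf20, a peak in both KO lines and neither WT line at day 5. Both KO lines ranked above both WT lines at day 5 at 63.3% of promoters. The share with a peak in both KO lines and neither WT line was not counted. At day 5 Fgf15 was marked in the KO lines at percentile ranks of 70.1 and 68.99, in CM59 at 56.7 but not in CM69, and in neither WT line. The KO15 and KO1 peaks were the 850th and the 635th strongest of their libraries, those of Fgf20 the 2334th and the 2084th, and the WT libraries at day 5 held 1270 and 1385 peaks. The Fgf15 peaks thus ranked within that number and the Fgf20 peaks beyond it. The part of the number of peaks in either call was not tested. After day 2 the promoter was marked in 4 of 6 KO, 4 of 6 MUT and 2 of 6 WT libraries (KO and WT, exact p = 0.583, adjusted p = 1). At a single time point 2 lines against 2 allow no exact p below 0.333, so the separation at day 5 is given without a test.

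Fgf9, a ligand that keeps mesenchymal cells dividing, had both KO lines above both WT lines at day 5, as had 63.3% of promoters. Its percentile rank at day 5 was 87.9 and 89.9 in KO, 88.5 and 57.6 in MUT and 61.9 and 61.2 in WT, and its peak was 10112 bp and 11125 bp wide in KO, 9678 bp and 5500 bp in MUT and 6131 bp and 5629 bp in WT. At day 2 the order was the opposite, with ranks of 28.6 and 51.0 in KO, 78.7 and 75.9 in MUT and 75.1 and 61.8 in WT. At day 3 it was 68.7 and 40.7 in KO, 37.6 and 37.1 in MUT, and 16.9 in WT72 with no peak in WT70. The sign of the KO and WT difference turned between day 2 and day 3, when the second KO line was also exchanged. The share of promoters with such a turn was not counted. Over all time points the difference was 8.98 points (exact p = 0.276, adjusted p = 0.606).

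The comparison of MUT with WT addressed the catalytic activity of TET1. None of the 10 had an adjusted p below 0.05 in the 4 MUT and WT tests, and 1 had an unadjusted p below 0.05: the Fgf9 peak averaged 8585 bp in MUT and 7172 bp in WT, a difference of 1413 bp (exact p = 0.0381, adjusted p = 1), where 3.97% of promoters had an unadjusted p below 0.05 for width. It was no longer below 0.05 without CM40, without WT70, without WT72, among equally many peaks, or by bases covered over the gene. By rank, no member reached an unadjusted p below 0.05, against 3.21% of 2894 promoters. With ranks counted as log2 from the strongest peak, 2 members did, as did 241 promoters. Without the CM59 library at day 5 XAV, 2 members did, as did 276 promoters. Fgf8 averaged 71.3 in MUT and 81.6 in WT (exact p = 0.115, adjusted p = 1). After day 2, 2 of the 8 members tested (Fgf9 and Fgf15) were marked in more MUT than WT libraries, against 43.1% of 1848 promoters, and 1 (Fgf17, 2 of 6 against 4 of 6) in fewer, against 16.3%. The median rank difference between MUT and WT was -0.70 points over the members and 1.92 points over all promoters.

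By time, most peaks were found at day 0 for Fgf5, at days 0 and 2 for Fgf10, and at day 5, with or without XAV, for Fgf4, Fgf17 and Fgf18. Fgf15 was marked in 6 of 6 libraries at day 0 and in 1, 3, 3 and 4 of 6 at day 2, day 3, day 5 and day 5 XAV. The mean rank of Fgf9 over the 3 genotypes was lowest at day 3, though in KO it was lowest at day 2. No time comparison passed an adjusted p of 0.05 for any member or any other promoter, where 6 libraries against 6 within 3 genotypes can go no lower than an exact p of 0.00926. Values below are therefore set beside the share of all promoters that went as far.

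**Figure D2:**
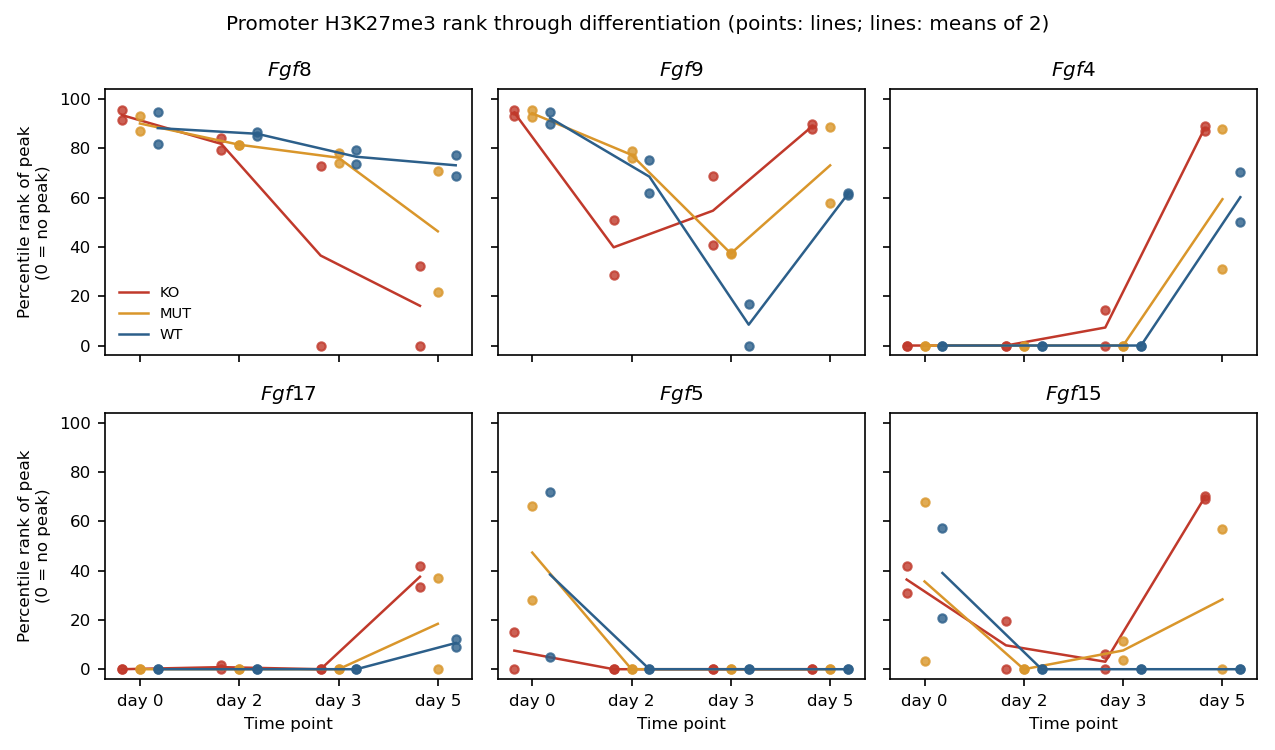
Percentile rank of the promoter peak (vertical axis, 0 for no peak) at days 0, 2, 3 and 5 (horizontal axis) for 6 genes, with 1 point per cell line and a curve through the genotype means. Fgf4 had no peak at days 0 and 2 and lay between 31.0 and 89.0 at day 5, and Fgf8 at day 5 lay at 0 and 32.2 in KO against 68.7 and 77.4 in WT.

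Between day 2 and day 0, 5 of the 7 members tested had a lower rank with an unadjusted p below 0.05 (Fgf3, Fgf5, Fgf8, Fgf9 and Fgf15), against 19.1% of 2777 promoters. With the line as a block it was 3 of the 7 (Fgf3, Fgf9 and Fgf15, each with an exact p of 0.0312), and Fgf5 and Fgf8 had an exact p of 0.0625. Fgf5 was marked in 5 of 6 libraries at day 0, at 15.1 in KO25, 66.3 and 28.2 in the MUT lines and 4.99 and 71.7 in the WT lines, with no peak in KO15. It was then marked in 0 of 6 libraries at each of day 2, day 3 and day 5, and in 1 of 6 at day 5 XAV (KO15, at 14.3). At day 2 against day 0 the share of libraries with a peak differed by -0.83 (exact p = 0.0278, adjusted p = 0.398), and with the line as a block it was not below 0.05. Day 0 and day 2 overlapped through KO15, which had no Fgf5 peak at either day. Where called, the Fgf5 peak was 1489 bp to 5424 bp wide.

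Fgf15 was marked in 6 of 6 libraries at day 0, with ranks of 30.9 and 41.8 in KO, 67.7 and 3.41 in MUT and 20.6 and 57.4 in WT. At day 2 the peak was left in 1 of 6, KO25 at 19.4 (rank difference -33.8, exact p = 0.00926, adjusted p = 0.066). It was seen again in 3 of 6 libraries at day 3, all of them KO or MUT and all at a rank of 11.3 or less. Day 0 and day 2 did not separate fully by rank, since KO25 at day 2 lay above CM59 at day 0.

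All 6 day 2 libraries ranked below all 6 day 0 libraries for 2 members, Fgf3 and Fgf9, and for 7.56% of promoters. Fgf9 lay between 28.6 and 78.7 at day 2 and between 89.7 and 95.6 at day 0 (difference -31.7, exact p = 0.00926, adjusted p = 0.066). Fgf3 lay between 74.2 and 84.7 at day 2 and between 85.2 and 92.5 at day 0 (difference -8.19, exact p = 0.00926). Its order depends on the measure of strength, since by total signal over width its difference was 4.10 points the other way. Fgf8 was lower by total signal too (-7.52 points, exact p = 0.0278) and higher by the highest signal in the peak (9.002 points) or by total signal over width (14.6 points).

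At day 3 against day 2 ranks were lower in general, with a median difference of -10.6 points over the 6 members tested and -8.95 points over all promoters. Of the 6, 1 (Fgf8) ranked lower at an unadjusted p below 0.05, as did 22.3% of promoters (63.0 at day 3 and 83.0 at day 2, exact p = 0.00926, adjusted p = 0.127). Another 1 (Fgf3) ranked higher at an unadjusted p below 0.05 (7.31 points, exact p = 0.0278, adjusted p = 0.145), as did 1.39% of promoters. With the line as a block, neither was below 0.05 (Fgf8 at -7.01 points and an exact p of 0.125, Fgf3 at 6.60 points and 0.25), where the 4 lines sampled at both days allow no p below 0.125. Fgf10, the limb and lung bud ligand, was marked at days 0 and 2 and in 0 of 18 later libraries, with a peak in 2 of 6 libraries at day 0 (CM40 at 14.3, WT72 at 3.13) and in 4 of 6 at day 2 (KO25 at 24.0, CM40 at 19.6, WT70 at 23.5 and WT72 at 19.8). Its 6 peaks all ranked at 24.0 or below and were 4301 bp to 5312 bp wide, close to each other in width.

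Between day 5 and day 3, 3 of the 8 members tested ranked higher with an unadjusted p below 0.05 (Fgf4, Fgf9 and Fgf17), against 14.3% of 2254 promoters. With the line as a block it was 2 of the 8, and Fgf17 had an exact p of 0.0625. Fgf4 was marked in 6 of 6 libraries at day 5, at 87.1 and 89.0 in KO, 87.7 and 31.0 in MUT and 70.2 and 50.0 in WT, against 1 of 6 at day 3 (KO1 at 14.6) and 0 of 12 at days 0 and 2. All 6 day 5 libraries lay above all 6 day 3 libraries, a separation seen at 1 member and 2.35% of promoters (difference 66.7 points, exact p = 0.00926, adjusted p = 0.110). Of the 4 pluripotency markers, Pou5f1 was also first marked at day 5, while Esrrb was marked throughout and Nanog and Zfp42 at no time point.

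The Fgf4 peak at day 5 was 9885 bp and 8785 bp wide in KO, 7107 bp and 3768 bp in MUT and 6189 bp and 3815 bp in WT. Both KO values lay above all MUT and WT values, and both KO ranks lay above both WT ranks, while CM59 matched the KO lines by rank. The marked Fgf4 start lies 23.3 kb downstream of the first Fgf3 start, and the Fgf15 start 58.4 kb downstream of it. In 0 of 30 libraries did the Fgf3, Fgf4 and Fgf15 promoters share a peak, so the broad Fgf3 domain present throughout and the Fgf4 domain of day 5 were separate calls.

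**Figure D3:**
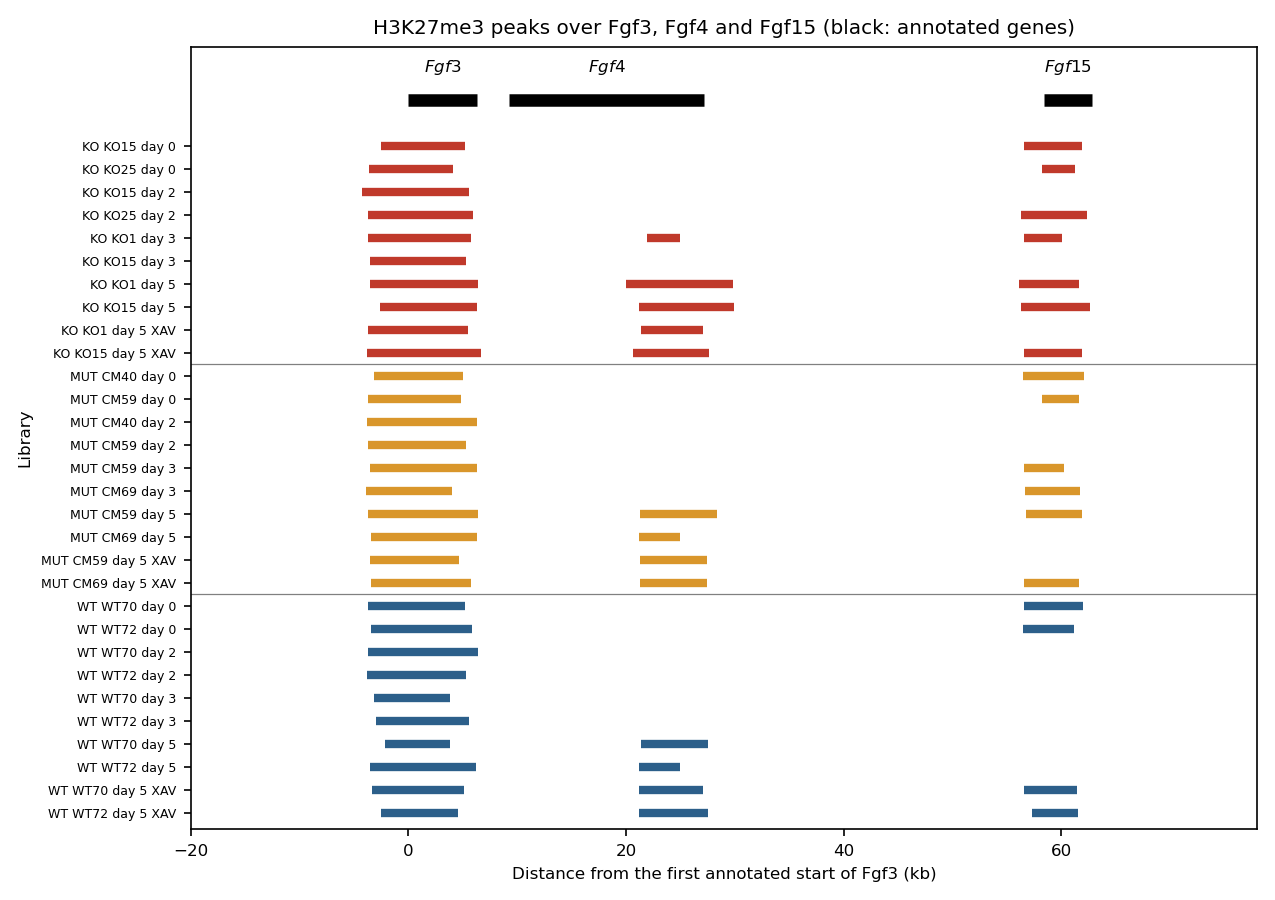
H3K27me3 peaks (bars, coloured by genotype) in the 30 libraries (rows: KO, MUT and WT lines by time point) against distance in kb from the first annotated start of Fgf3, with the annotated Fgf3, Fgf4 and Fgf15 genes in black. The Fgf3 peak was present in all 30 rows, the Fgf4 peak in 13 and the Fgf15 peak in 17.

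Fgf17, the close relative of Fgf8 in the midbrain and hindbrain, was marked in 5 of 6 libraries at day 5, in 0 of 6 at day 3 and in 1 of 12 before that (KO25 at day 2, at 1.69). Its ranks at day 5 were 33.3 and 41.7 in KO, 36.8 in CM59 with no peak in CM69, and 12.4 and 8.81 in WT (day 5 and day 3, difference 22.2 points, exact p = 0.0278, adjusted p = 0.183). Both KO lines and 1 MUT line lay above both WT lines. By position from the top of the library the order differed, since the peak was the 1417th and 1597th strongest in KO and the 1113th and 1264th in WT, whose libraries held fewer peaks.

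A comparison of day 5 with day 0, added after these values were seen, sets the ends of the route side by side. By rank, 3 of the 10 members tested were lower at day 5 with an unadjusted p below 0.05 (Fgf5, Fgf8 and Fgf9), against 16.6% of 2965 promoters, and 2 were higher (Fgf4 and Fgf17), against 4.82%. Fgf8 averaged 45.2 at day 5 and 90.5 at day 0 (difference -45.4, exact p = 0.00926, adjusted p = 0.0837), Fgf9 averaged 74.5 and 93.6 (-19.1, exact p = 0.00926) and Fgf4 69.2 and 0 (69.2, exact p = 0.00926). Fgf5 averaged 0 and 31.1 (-31.1) and Fgf17 22.2 and 0 (22.2), each with an exact p of 0.0278 and an adjusted p of 0.144. With the line as a block, 0 members were below 0.05, where 4 lines sampled at both days allow no p below 0.125. Fgf8 was lower at day 5 in all 3 genotypes, with means of 16.1 at day 5 and 93.4 at day 0 in KO, 46.3 and 90.01 in MUT and 73.1 and 88.1 in WT. When ranks were counted as log2 from the strongest peak, 4 members had an adjusted p below 0.05, Fgf4 and Fgf8 among them (0.0417 each). The share of all promoters that did so is not given here.

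Of the 8 members tested for XAV, 4 were marked in more libraries at day 5 XAV than at day 5 and 0 in fewer, against 19.9% and 40.4% of 2348 promoters. They were Fgf8 (6 of 6 with XAV against 5 of 6 without), Fgf15 (4 against 3), Fgf18 (5 against 2) and Fgf20 (4 against 3), and none of these 4 differences in calls had an unadjusted exact p below 0.05. The median rank difference was 6.63 points over the 8 members and -3.22 points over all promoters. Of the 8, 1 had an unadjusted p below 0.05 for rank, against 6.52% of promoters, and 0 had an adjusted p below 0.05.

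Fgf18, a ligand of bone and lung that belongs to the Fgf8 subfamily, was that member. It was marked in 5 of 6 libraries at day 5 XAV, at 29.6 and 36.9 in KO, 30.0 in CM69 with no peak in CM59, and 28.0 and 28.0 in WT. At day 5 it was marked in 2 of 6, KO15 at 6.76 and CM59 at 12.7, and in 0 of 18 libraries before. The difference was 22.1 points (exact p = 0.0278, adjusted p = 0.553), and in 5 of 6 lines the rank was higher with XAV. With the line as a block the exact p was 0.0625. CM59, the exception, had its fewest peaks in the XAV library, and without that library the difference was 27.1 points (exact p = 0.00926, adjusted p = 0.604).

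For Fgf8, both KO lines and both WT lines ranked higher with XAV: 79.0 and 87.5 against 0 and 32.2 in KO, and 77.0 and 91.6 against 68.7 and 77.4 in WT. The MUT lines went opposite ways, CM69 at 78.7 with XAV against 21.8 without, and CM59 at 46.2 against 70.8. The mean over the 3 genotypes was 76.7 with XAV and 45.2 without (difference 31.5 points, exact p = 0.0741, adjusted p = 0.594). The KO change by line was 79.0 and 55.3 points and the WT change 8.30 and 14.2 points. This difference between the genotypes was not tested, and the share of promoters with as large a difference was not counted.

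**Figure D4:**
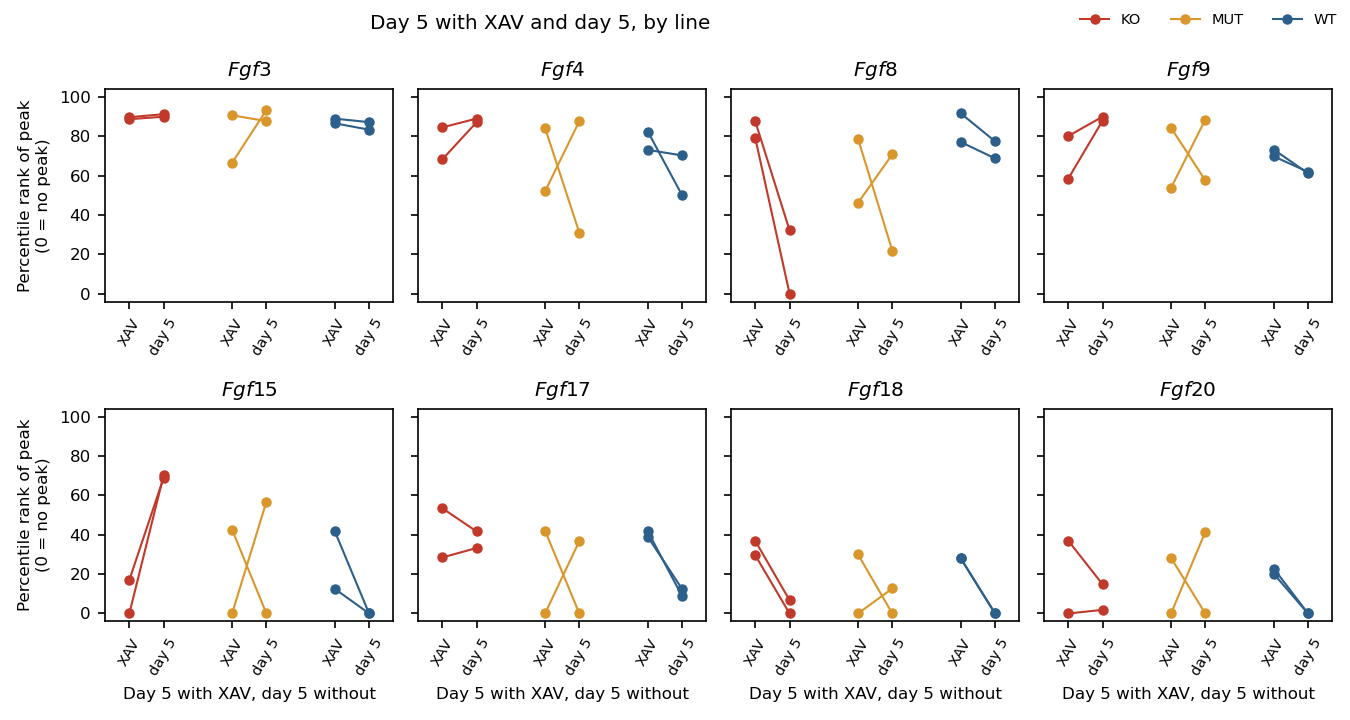
Percentile rank of the promoter peak (vertical axis, 0 for no peak) at day 5 XAV (left of each pair) and day 5 (right) for 8 genes, with each line of cells joined and coloured by genotype. Fgf8 was at 79.0 and 87.5 with XAV and at 0 and 32.2 without in KO, and the 2 MUT lines crossed in every panel, CM59 lower with XAV.

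Fgf15 went the other way from Fgf8 in KO cells. With XAV its rank was 0 (no peak) in KO1 and 17.0 in KO15, against 70.1 and 68.99 at day 5, while in WT it was 12.5 and 41.8 with XAV against no peak in either line without. Fgf9 was likewise lower with XAV in both KO lines, 58.5 and 80.1 against 87.9 and 89.9, and higher in both WT lines, 69.7 and 73.2 against 61.9 and 61.2. So was Fgf4, at 68.2 and 84.5 with XAV against 87.1 and 89.0 in KO, and at 73.1 and 82.4 against 70.2 and 50.0 in WT. Counting Fgf3, 4 of the 8 members tested moved one way in both KO lines and the other way in both WT lines, as did 12.4% of promoters, and these differences were not tested. The number of peaks, on which percentile rank depends, also fell with XAV in both KO lines and rose in both WT lines.

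Set against WT at day 5, both KO lines ranked above both WT lines for 6 of the 8 members tested (Fgf3, Fgf4, Fgf9, Fgf15, Fgf17 and Fgf20), close to the 63.3% of promoters for which this held. Fgf8 was the 1 member with both KO lines below both WT lines, against 3.05% of promoters. With XAV the first order was seen at 1 of the 8 (Fgf18), against 42.8% of promoters, and the second at 0 of 8, against 4.31%. The KO and WT ranks of the 7 members that were separate at day 5 thus overlapped at day 5 XAV.

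The MUT lines did not behave alike. CM59 ranked lower with XAV at all 8 members tested and CM69 higher at all 8, and the CM59 library with XAV held 704 peaks, against 2847 without, while CM69 held 1924 with and 1191 without. The part of the number of peaks in these ranks was not tested. Over all lines 1.17 more members were marked per library with XAV than without, which became 1.83 without that CM59 library and -0.17 without line CM69. Counted among equally many peaks within each time point it was -0.33, so the sign of this excess depends on how many peaks are counted.

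Fgf17 and Fgf20 had weaker peaks at the same stage. Fgf17 ranked at 28.5 and 53.5 in KO, 42.0 in CM69 with no peak in CM59, and 38.9 and 41.7 in WT with XAV, against the day 5 values given above. Fgf20, an inner ear and kidney ligand of the Fgf9 subfamily, was marked in 4 of 6 libraries with XAV (KO15 at 37.0, CM69 at 28.3, WT70 at 20.1 and WT72 at 22.8) and in 3 of 6 without (KO1 at 1.84, KO15 at 14.8 and CM59 at 41.4). Its earlier calls were scattered, in 3 of 6 libraries at day 0, 3 of 6 at day 2 and 0 of 6 at day 3. The 3 day 0 calls were in the libraries with the most peaks at that day, KO25, CM40 and WT72 with 2874, 3466 and 3450. The part of the number of peaks in these calls was not tested.

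Counted per library, the smallest count was 2 of 10 members, in WT70 at day 3 with 23.7% of promoters marked, and the largest 9 of 10, in KO15 at day 5 XAV with 66.4%. After day 2 a library had 6.0 ± 2.3 members marked in KO, 5.3 ± 2.1 in MUT and 5.2 ± 2.5 in WT (SD over 6 libraries), while 54.7%, 42.0% and 33.3% of the 3177 promoters were marked. The KO excess over WT of 0.83 members per library was smaller than the 1.59 between the 2 lines of a group (pooled SD), and it was 0.17 without KO15 and 1.5 without KO1. Counted among equally many peaks of all libraries, it was -0.33. Both WT libraries at day 5 XAV had 8 members marked, with 36.6% of promoters in WT70 and 41.9% in WT72. Both WT libraries at day 5 had 5 members marked, with 31.5% of promoters in WT70 and 35.0% in WT72.

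**Figure D5:**
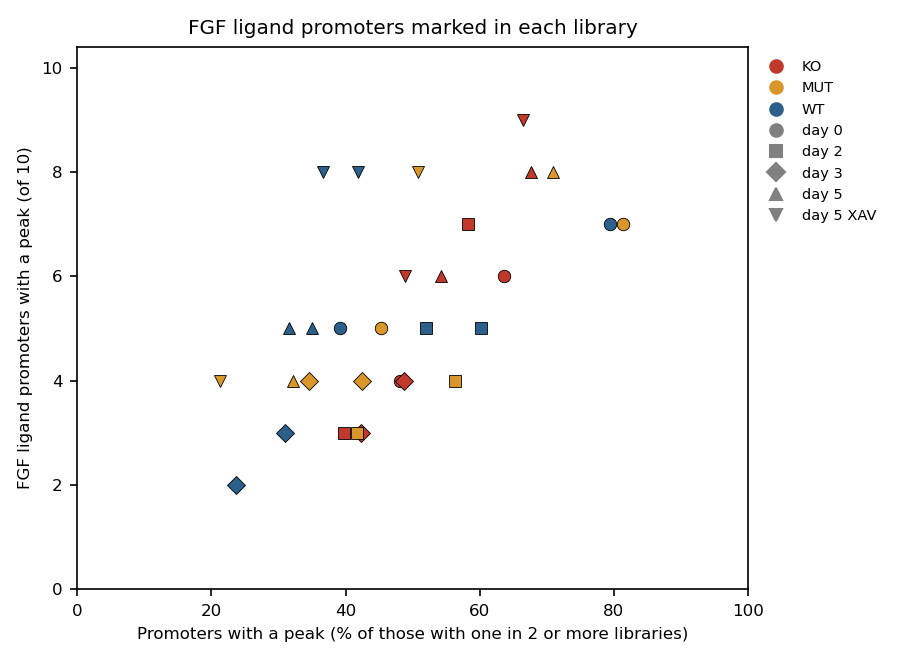
Number of the 10 FGF ligand promoters with a peak (vertical axis) against the percentage of all promoters with a peak, of those marked in at least 2 libraries (horizontal axis), with 1 point per library, coloured by genotype and shaped by time point. The WT libraries at day 5 XAV lie at 8 members and those at day 3 at 2 and 3.

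Outside the members, 12 further genes named Fgf, 10 receptor genes with co-receptors and binding proteins, and 12 feedback inhibitors and target transcription factors were looked up. Of these 34, 15 were marked in at least 2 libraries. The receptor gene Fgfr1 and the inhibitors Spry1, Spry2 and Dusp6 were among the 18 marked in none. By the largest difference between KO and WT after day 2, the 6 genes to name were Fgf2 (6 of 6 KO against 1 of 6 WT libraries), the co-receptor Kl (6 against 1), Fgf16 (5 against 1), Fgf11 (6 against 4), Fgfr2 (2 against 0) and Fgfr4 (2 against 0). These 6 were chosen for that difference. Over the whole lists, 3 of 4 Fgf genes tested, 3 of 4 receptor genes and 1 of 2 inhibitors and targets were marked in more KO than WT libraries and 0 in fewer. Over all 2229 promoters tested, 64% were marked in more KO than WT libraries and 3.86% in fewer. Fgf2 and Kl each had an exact p of 0.0278 (adjusted p = 0.348). Fgf11 averaged a percentile rank of 63.9 in KO and 30.2 in WT over all time points (exact p = 0.00103, adjusted p = 0.147), and no gene of these lists passed the adjusted test. Spry4, a feedback inhibitor, was marked in 6 of 6 libraries at day 5 XAV and in 0 of the 24 others (day 5 XAV and day 5, rank difference 37.0 points). Etv4, a target transcription factor, was marked in 6 of 6 at day 5 XAV, 2 of 6 at day 5 and 0 before. Spry4 and Etv4 were chosen after their values were seen, so no p is given for them. The share of promoters with such calls was not counted.

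For the 7 members marked in 3 to 27 libraries, the genes elsewhere in the genome whose rank ran most like theirs over the 30 libraries were named by Pearson's correlation, as a description. Genes read in 1 library share its number of peaks. They were Utf1 (r = 0.99) and Fgr (0.94) for Fgf4, Bin1 (0.98) and Samd4 (0.97) for Fgf5, and Zbtb10 (0.96) and Zeb2 (0.96) for Fgf10. For Fgf15 they were Dok7 (0.93) and Rgs10 (0.90), for Fgf17 Fgr (0.98) and Arhgap9 (0.96), for Fgf18 Epha2 (0.95) and Etv4 (0.94), and for Fgf20 Gramd1b (0.94) and Galnt12 (0.93). Utf1, a gene of pluripotent cells, was marked in 12 libraries, all among the 13 in which Fgf4 was marked, and Etv4 in 8, which included all 7 with a Fgf18 peak.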

How the data were processed

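H3K27me3 CUT&RUN libraries of KO, MUT and WT mESC lines at 5 time points were used, with 2 lines per group. Per the study's methods, the authors used Trim Galore for trimming, Bowtie for alignment to GRCm38.p6, Picard to drop duplicates and SEACR, stringent and normalized to IgG, to call peaks library by library (SEACR version not given in the sources used here). The deposited peak files give the total signal and the highest signal of each peak, not scaled between libraries, and read depth is unknown. Lists of regions that differed between KO and WT, which the authors made with DiffBind 3.0.15, were not used. Of the columns with values per sample, all were mapped to a sample.

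A promoter was called where a peak overlapped by at least 1 bp the window of 1.5 kb to either side of any start of a protein-coding transcript in GENCODE M21. Percentile rank is the share of a library's peaks with total signal no higher. Calls, ranks and widths were compared by two-sided exact permutation tests stratified by time point (genotypes) or genotype (days and XAV), with Benjamini-Hochberg adjustment over all promoters called in at least 2 libraries of the comparison. The tests were checked on simulated data. The same line across days pairs the samples by cell line. The deviations of 10 such pairs correlated at -0.49 to 0.25, over 0.1 in 5. The 2 lines of a group are its replicates. In the genotype tests libraries were relabelled within each time point, so a line sampled at several time points counted anew at each. Their p-values thus treat the libraries of 1 line at different days as independent and do not measure the spread between lines alone. No genotype test that relabelled whole lines was run. All 10 members are named, with the 6 genes of the further lists of largest KO and WT difference and the 2 most alike genes per member. Members and lists were chosen with earlier results of these data known. Python 3.11.15, NumPy 2.4.6, SciPy 1.17.1 and Matplotlib 3.10.9 were used. Alternatives covered the window, the measure of strength, the number of peaks, each line left out and the line as a block.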

Additional observations from a re-analysis of the deposited data

Results flagged for a closer look

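The change with XAV ran in opposite directions in both KO and both WT lines at 4 of the 8 members tested, against 12.4% of promoters, and none of these differences between genotypes was tested. Day 5 XAV minus day 5, the mean change in percentile rank was -61.0 points in KO and 27.1 in WT at Fgf15, -19.6 and 9.94 at Fgf9, -11.7 and 17.6 at Fgf4, and -1.39 and 2.52 at Fgf3. At Fgf15 the peak of KO1 at day 5 had no counterpart with XAV, while both WT lines had a peak with XAV and none at day 5. The number of peaks also fell with XAV in KO1 (2122 to 1729) and KO15 (2738 to 2461). It rose in WT70 (1270 to 1407) and WT72 (1385 to 1717). The Fgf3 peak went from the 215th to the 197th strongest with XAV in KO1 and from the 242nd to the 255th in KO15. The part of the number of peaks in these changes of rank was not tested.

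The KO minus WT difference of Fgf9 was 46.2 points at day 3 and 27.4 at day 5, against -28.6 at day 2, with the 2 KO lines on 1 side of both WT lines each time. At Fgf20 it was 8.31 points at day 5, against -14.6 at day 2. These differences between days were not tested either, and 1 of the 2 KO lines was a different one at day 2. At day 5 both KO lines ranked above both WT lines at 63.3% of promoters. The shares for days 2 and 3, and for a change of sign between days, were not counted.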

How the results depend on the processing

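Across 18 counts of members with an adjusted p below 0.05, all 0, 322 of 331 alternatives also gave 0. With ranks counted among equally many of the strongest peaks of all libraries, the day 2 and day 0 comparison gave 2 members and day 5 and day 0 gave 3 (Fgf3, Fgf8, Fgf9). With the same number within each time point, it was 2 for day 2 and day 0, 2 for day 3 and day 2, 2 for day 5 and day 3 (Fgf4, Fgf9), 3 for day 5 and day 0 and 2 for XAV (Fgf3, Fgf9). The lists then held 1484, 1317, 969 and 1191 peaks at days 0, 2, 3 and 5 and 704 with XAV, which shifts the percentiles between time points by construction. Many other promoters passed too. Within time points it was 526 of 1759 for day 2 and day 0, 412 of 1417 for day 3 and day 2 and 468 of 1257 for XAV. Among equally many peaks of all libraries it was 237 of 1012 for day 2 and day 0. With log2 rank, 2 members passed for day 2 and day 0, as did 594 of 2777 promoters, and 4 members for day 5 and day 0. The shares of promoters for day 5 and day 3 and for day 5 and day 0 are not given here. Against the main direction, Fgf8 at day 2 minus day 0 was 9.002 by highest signal and 14.6 by signal over width, and Fgf3 was 4.10 by signal over width. The cause was not tested. With the line as a replicate block, the count was 0 members in every comparison, while calls by unadjusted p were fewer in all 5 rank comparisons of days or XAV and in 3 of the 5 of peak presence, with a smallest exact p of 0.0312 or, where 4 lines were sampled at both days, 0.125. With each line left out in turn, the count was 0 members in every comparison. With equally many peaks taken from all libraries, the KO excess of 0.83 members per library became -0.33, and with XAV the excess of 1.17 became 0.50, or -0.33 with the same number within each time point. The comparison of day 5 with day 0 and the omission of 1 CM59 library were chosen after seeing the data. With 2 lines per group and unknown depth, only large differences could pass.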
